A study of Ictidomys tridecemlineatus with 5 samples.

Results

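Nuclear hormone receptors are transcription factors, many of which are switched on or off by a small fat-soluble ligand such as retinoic acid, thyroid hormone, a steroid or an oxysterol. Transcripts of 34 listed receptors were sought in RNA sequencing of the thirteen-lined ground squirrel, Ictidomys tridecemlineatus, a hibernating rodent active by day whose retina is rich in cones. A transcript was taken as a receptor's when its best Swiss-Prot hit carried that receptor's entry name. In eye, 69 of 61797 transcripts with a hit belonged to 32 of the receptors, and in retina 59 of 62889 belonged to 29. All 29 receptors of the retina table were also in the eye table. The other 3, ESR1, RORG and NR4A3, were in the eye table only, and 2, NR1H4 and NR5A2, were in neither.

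The study sequenced 2 eye libraries and 3 retina libraries of wild-type animals, and the labels used here give no age, sex or treatment. A library was made from RNA combined from 4 animals. Each transcript has 1 deposited value in its tissue, so that no difference between eye and retina has a replicate check and none was tested. Levels are RPKM, a read density corrected for transcript length and for sequencing depth, of the highest transcript of each receptor, which allows receptors of different transcript lengths to be set side by side. The authors' scaling implies a total of 264219334 reads in eye and 355988270 in retina. Each difference subtracts log2(retina RPKM + 1) from log2(eye RPKM + 1), a scale that understates differences of low genes, and a receptor is called higher in a tissue at a 2-fold difference on that scale. Intervals are 95% Poisson or exact binomial intervals on reads and cover counting error only.

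The tissue labels were checked against marker transcripts. All 3 markers of retinal neurons, RECO (recoverin), ARRC (cone arrestin) and SNP25 (SNAP25), were lower in eye, with a summed level of 2587 RPKM in eye, against 5424 RPKM in retina. The 7 markers of lens, cornea, pigment epithelium, skeletal muscle and connective tissue were all higher in eye, with a summed level of 8886 RPKM in eye, against 29.9 RPKM in retina. None of the 10 was at 0 in either table. The eye libraries therefore held retina together with other ocular tissues, and the part of these tissues in the differences that follow was not tested. In bulk RNA, fewer cells of a type and less RNA per cell cannot be told apart.

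Receptors of this family share a DNA-binding domain of zinc fingers and, in most members, a pocket that binds the ligand. Retinoid, thyroid hormone, vitamin D and lipid receptors bind DNA mainly as heterodimers with a retinoid X receptor (RXR), while steroid receptors wait with chaperones for hormone and bind as homodimers. Orphan receptors have no established natural ligand or act without one. In the mouse retina, members of the family help set photoreceptor identity and the opsin that a cone makes.

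Most receptors stood at similar levels in eye and retina. Of the 29 receptors in both tables, 26 reached 1 RPKM in at least one tissue and were compared. RARG and ERR1 were at least 2-fold higher in eye, NR6A1 was so in retina, and the other 23 lay within 2-fold. Among all 13383 proteins compared, 11.8% passed the 2-fold mark towards eye and 3.6% towards retina, so that 2 and 1 of 26 receptors are near these shares. By direction alone 15 receptors were higher and 11 lower in eye, with a median difference of 0.07. Of all proteins 49.7% were higher in eye, around a median of -0.0035. With the tissues brought to an equal total, the median of all proteins moved to -0.25 and that of the receptors to -0.19, and 10 of 27 receptors were then higher in eye, against 33.7% of all proteins. Across the 29 receptors in both tables, log2 levels in the tissues correlated with Pearson's r = 0.90 and Spearman's rho = 0.88. This describes receptors that share libraries and assemblies and are not independent replicates.

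**Figure D1:**
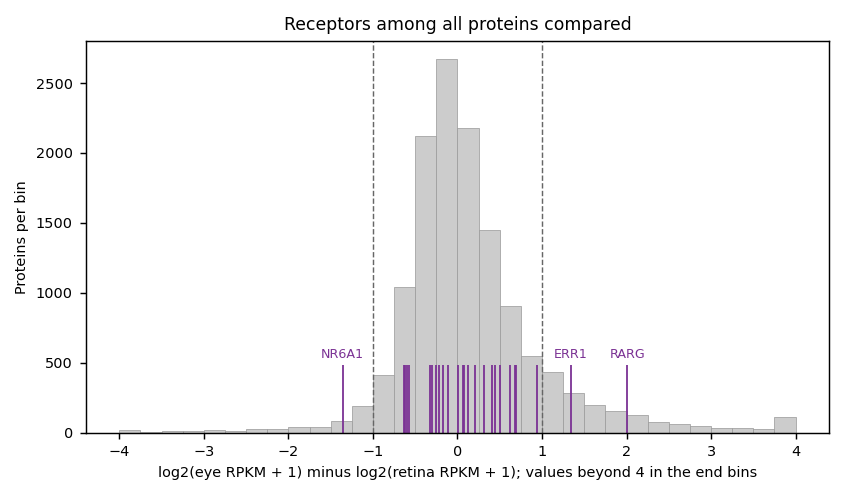
Histogram of the log2 difference, eye minus retina, over the 13383 proteins compared (grey bars, proteins per bin), with each of the 26 receptors as a purple line of arbitrary height and dashed lines at a 2-fold difference. Most receptors lie in the body of the distribution, and RARG, ERR1 and NR6A1 lie outside the dashed lines.

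The family sat in the middle of the range of transcript levels. The median receptor level was 7.68 RPKM in eye and 8.24 RPKM in retina, and over all Swiss-Prot names the median was 8.01 RPKM in eye and 7.92 RPKM in retina. In eye 14 receptors reached 10 RPKM and 6 were below 1, and in retina 12 reached 10 RPKM and 3 were below 1. THA and NR1H2 led in both tissues. THA alone held 22.4% of the RPKM summed over the receptors in eye and 23.7% in retina. After them the order in eye was ERR1, COT1, RXRB, NR2F6, NR2C2 and COT2, and in retina it was RXRB, NR2C2, ERR3, COT1, NR2F6 and PPARD. Of 31 neighbouring pairs in the eye order, 11 had overlapping counting intervals, among them RXRB and NR2F6, NR2C1 and ERR3, and RARG, RARB and RORA in a row. Of 28 neighbouring pairs in retina, 8 overlapped, among them RXRB and NR2C2, NR2F6, PPARD and NR2C1 in a row, and RARG, VDR and GCR in a row.

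**Figure D2:**
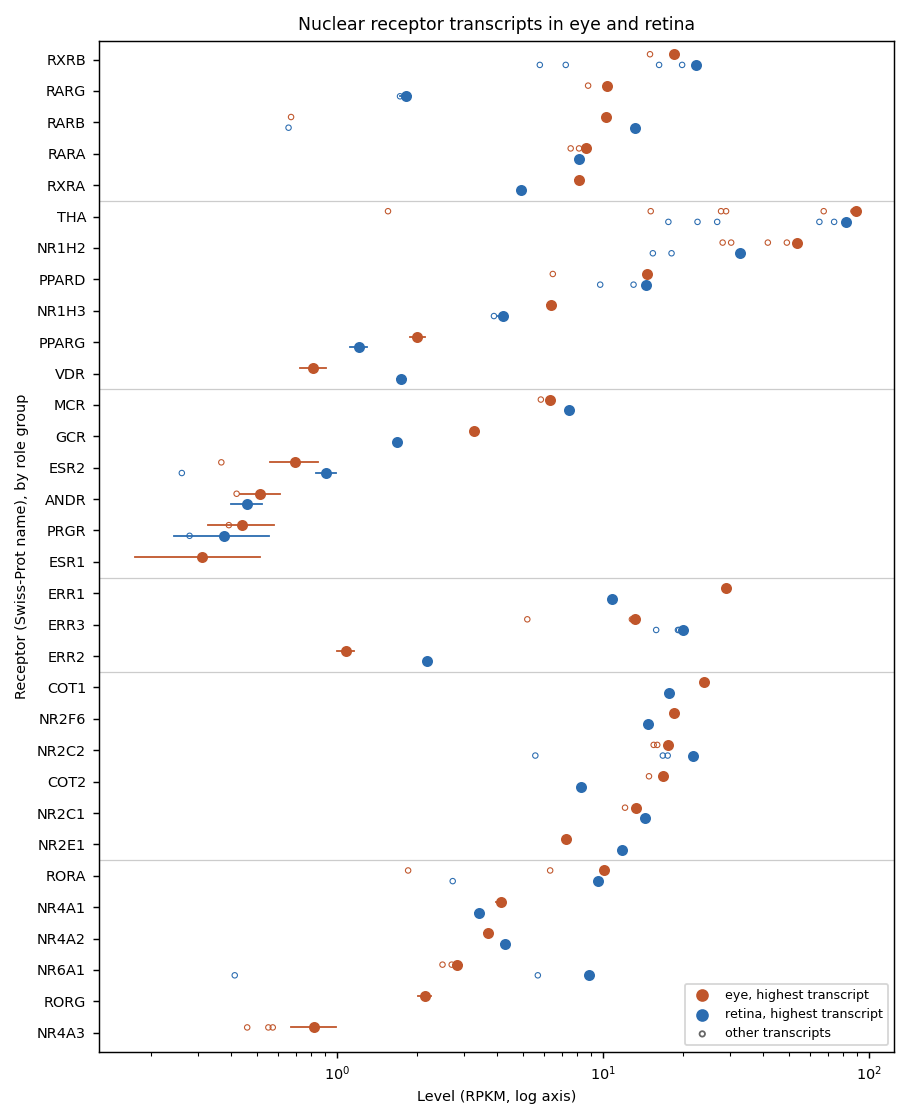
Level of each receptor found in eye (orange, upper of each pair) and retina (blue, lower of each pair) in RPKM on a log axis, by role group. Filled points are the highest transcript with its 95% counting interval and open points are other transcripts of the same receptor. THA stands highest in both tissues, sex steroid receptors stand below 1 RPKM, and RARG shows the widest gap between the tissues among receptors found in both.

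Retinoid receptors were all present, and one of them, RARG, differed most. RARG, the retinoic acid receptor gamma, known in mammals from epithelia, was at 10.3 RPKM in eye, against 1.81 RPKM in retina. This is a ratio of 5.70 (95% interval 5.40 to 6.03) and a difference of 2.01, which 3.77% of all proteins compared exceeded. Both of its transcripts showed the gap: those aligned over 442 residues stood at 8.80 RPKM in eye, against 1.73 RPKM in retina. RARG was at least 2-fold higher in eye under all 13 alternative settings, with differences between 1.17 and 2.45. It moved with the markers of the other ocular tissues given above, and their part was not tested.

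The other retinoic acid receptors lay within 2-fold between tissues. RARA, the broadly expressed alpha form, was at 8.63 RPKM in eye, against 8.10 RPKM in retina, a difference of 0.08 that became -0.17 at an equal total. RARB, whose own gene is a classical target of retinoic acid, was at 10.3 RPKM in eye, against 13.1 RPKM in retina, a difference of -0.33. In eye the 3 retinoic acid receptors thus stood within 8.63 to 10.3 RPKM, while in retina RARB was highest, RARA followed, and RARG was the lowest. Each RARB assembly also held a short transcript, at 0.674 RPKM in eye, against 0.659 RPKM in retina.

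The retinoid X receptors are the shared partners of the heterodimers. RXRB was the more abundant of the 2 listed, at 18.6 RPKM in eye, against 22.4 RPKM in retina, a difference of -0.26. The sign of this difference depended on the transcript chosen. The highest retina transcript aligned over 202 residues, and with the longest alignment in each tissue RXRB differed by 0.18, at 18.6 RPKM in eye, against 16.3 RPKM in retina. RXRA was at 8.10 RPKM in eye, against 4.94 RPKM in retina, a ratio of 1.64 (1.58 to 1.71), with a single transcript in each table.

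Thyroid hormone receptor alpha, under the entry name THA, was the most abundant receptor in both tissues. It mediates the action of thyroid hormone in many tissues, and its gene yields a hormone-binding form and a form with a different C-terminus that does not bind hormone. The level was 89.5 RPKM in eye, against 81.7 RPKM in retina, a difference of 0.13, above 94.5% of all names in eye and 94.6% in retina. The eye value came from a transcript of 558 bases aligned over 225 residues. The next eye transcript, of 1598 bases aligned over 458 residues, stood at 87.3 RPKM, close to the retina value from a transcript with the same alignment length.

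THA also showed the widest spread among its own transcripts in eye, at 1.56 to 89.5 RPKM over 7 transcripts, and 17.6 to 81.7 RPKM over 6 transcripts in retina. Transcripts aligned over 370 residues of the sheep entry were at 67.5 RPKM in eye, against 65.1 RPKM in retina. One eye transcript of 4980 bases, aligned over 410 residues of that entry, was at 29.0 RPKM. The choice between these forms could move the comparison: with the best-matching transcript THA differed by -1.46. That setting took the 4980-base transcript in eye and one aligned over 458 residues, at 81.7 RPKM, in retina, so unlike transcripts were compared. THA passed 2-fold in 1 of the 13 alternatives. In the RefSeq annotation of assembly mIctTri1.hap1 the gene neighbours Nr1d1 without overlap, and whether reads were counted by strand is not given in the sources used here. NR1D1, the circadian repressor REV-ERB alpha, was at 79.3 RPKM in eye, against 153 RPKM in retina.

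**Figure D3:**
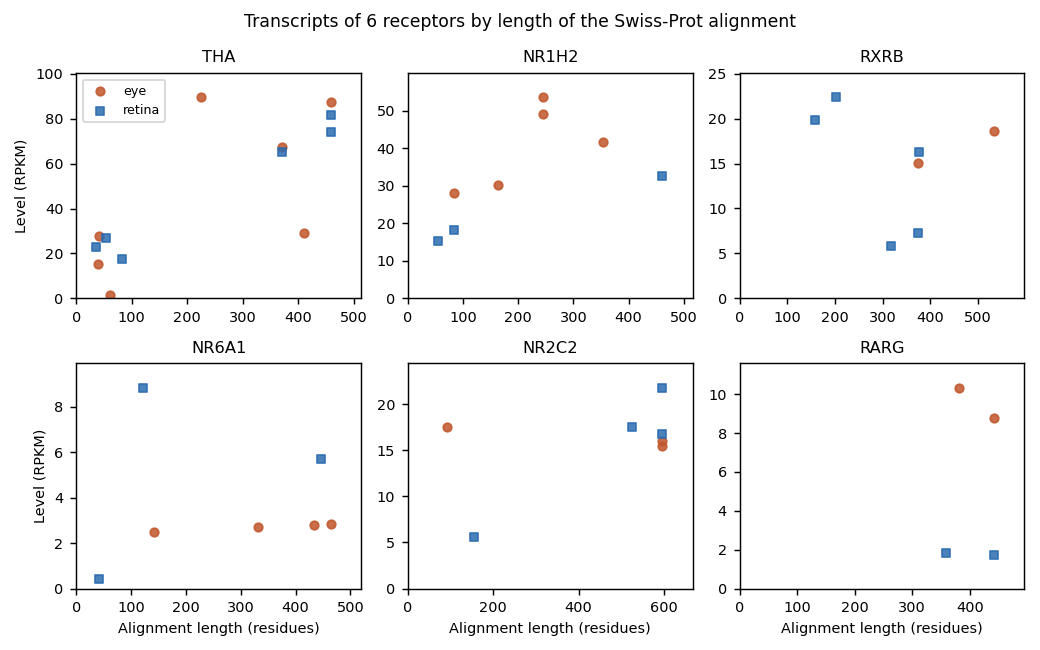
Level in RPKM (vertical axis) against the length of the Swiss-Prot alignment in residues (horizontal axis) for every transcript of 6 receptors, in eye (orange circles) and retina (blue squares). Eye and retina transcripts of THA aligned over 458 or 370 residues lie close together, while some with shorter alignments lie apart. Those of RARG lie apart at every length. The highest NR6A1 point in retina has an alignment of 121 residues.

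Of the lipid-sensing receptors, the LXR pair and PPAR gamma were higher in eye. LXR beta, NR1H2, an oxysterol sensor that drives cholesterol export, was at 53.6 RPKM in eye, against 32.7 RPKM in retina, a ratio of 1.64 (1.61 to 1.66). The eye transcript aligned over 244 residues, and with the longest alignments, at 354 residues in eye and 461 in retina, the difference was 0.34 instead of 0.69. LXR alpha, NR1H3, was at 6.40 RPKM in eye, against 4.20 RPKM in retina, a difference of 0.51. Both LXR receptors remained under the 2-fold mark by these measures, and NR1H2 exceeded it with transcripts summed, at 1.60.

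PPAR delta, PPARD, a fatty acid receptor of most tissues, was at 14.6 RPKM in eye, against 14.5 RPKM in retina, with a ratio of 1.01 (0.983 to 1.03). PPAR gamma, PPARG, the receptor of fat cell formation, was much lower, at 2.01 RPKM in eye, against 1.21 RPKM in retina. PPARD thus exceeded PPARG in both tissues. The vitamin D receptor, VDR, ran the other way, at 0.815 RPKM in eye, against 1.75 RPKM in retina. Its ratio of retina over eye was 2.14 (1.90 to 2.43), but its difference was only -0.60 with the pseudocount of 1 and -1.01 with 0.1. The single VDR transcripts differed in length, 1379 bases in eye and 4121 in retina, though both aligned over 427 residues. No transcript had the bile acid receptor FXR, NR1H4, as its best hit.

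Steroid receptors were a low-level group, with corticosteroid receptors above sex steroid receptors. The glucocorticoid receptor, GCR, the sensor of cortisol, was at 3.29 RPKM in eye, against 1.69 RPKM in retina, a ratio of 1.95 (1.88 to 2.03), from single transcripts of 6851 and 6832 bases. The mineralocorticoid receptor, MCR, which also binds cortisol, was at 6.30 RPKM in eye, against 7.46 RPKM in retina. MCR was therefore above GCR in both tissues, by more than the counting intervals.

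Androgen, progesterone and estrogen receptors all stood below 1 RPKM and were assembled mostly as fragments. The androgen receptor, ANDR, was at 0.516 RPKM in eye, against 0.459 RPKM in retina, with a ratio of 1.13 (0.90 to 1.40). The progesterone receptor, PRGR, was at 0.442 RPKM in eye, against 0.378 RPKM in retina, from 50 and 25 reads, with a ratio of 1.17 (0.711 to 1.98). Neither difference was detectable at this depth. Estrogen receptor beta, ESR2, was at 0.698 RPKM in eye, against 0.914 RPKM in retina. Estrogen receptor alpha, ESR1, was at 0.312 RPKM in eye (0.175 to 0.514) from 15 reads on 182 bases, and no retina transcript had it as its best hit. Of the names in the eye table, 8.75% were likewise missing from the retina table, against 3 of 32 receptors.

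Estrogen-related receptors do not bind estrogen, and with PGC-1 coactivators they drive genes of mitochondria and energy use. Members of this small group split between the tissues. ERR1 (estrogen-related receptor alpha) was at 29.1 RPKM in eye, against 10.9 RPKM in retina, a ratio of 2.68 (2.61 to 2.74) and a difference of 1.34, which 7.64% of proteins exceeded. ERR1 was at least 2-fold higher in eye under all 13 alternative settings, with differences between 1.08 and 1.41. Only the settings that changed the pseudocount or the scaling moved its value, and the others repeated 1.34. Each table held 1 ERR1 transcript, aligned over 419 residues in both, with 3182 bases in eye and 2241 in retina. With no other ERR1 transcript to choose, the effect of that choice could not be examined. The markers of other ocular tissues were also higher in eye than in retina, and their part was not tested.

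ERR3 (gamma) ran opposite to ERR1, at 13.1 RPKM in eye, against 20.1 RPKM in retina, a difference of -0.58. In eye 3 of its 4 transcripts had 5008 to 5269 bases and stood at 12.8 to 13.1 RPKM. ERR2 (beta), described in mouse rods, was the lowest of the 3, at 1.08 RPKM in eye, against 2.19 RPKM in retina. Its ratio of retina over eye was 2.03 (1.87 to 2.20), while its difference of -0.62 remained inside 2-fold. The single ERR2 transcripts had 2548 bases in eye and 4598 in retina. ERR1 was thus the highest of the group in eye and ERR3 the highest in retina.

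**Figure D4:**
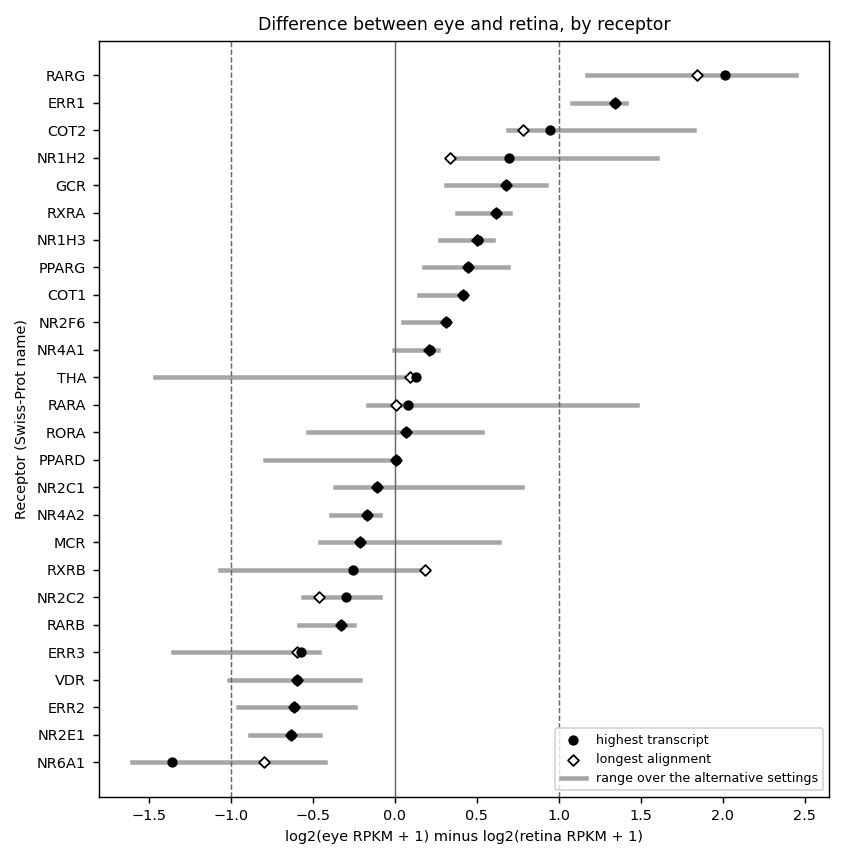
Difference between eye and retina (horizontal axis, log2 scale with a pseudocount of 1, positive where eye is higher) for each of the 26 receptors compared. Black points use the highest transcript, diamonds the transcript with the longest alignment, grey bars span the alternative settings, and dashed lines mark a 2-fold difference. The bars of RARG and ERR1 lie wholly beyond the upper dashed line, while those of THA and RXRB, among others, cross zero.

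The NR2 orphan receptors were well expressed in both tissues, from 7.27 to 24.0 RPKM in eye and 8.24 to 21.8 in retina. COUP-TF1, COT1, and COUP-TF2, COT2, repressors that pattern the developing eye of the mouse, were both higher in eye. COT1 was at 24.0 RPKM in eye, against 17.8 RPKM in retina. COT2 was at 16.8 RPKM in eye, against 8.24 RPKM in retina, a ratio of 2.03 (1.97 to 2.10) with a difference of 0.94, just inside the 2-fold mark, and 0.78 with the longest alignments. Their relative NR2F6 was at 18.6 RPKM in eye, against 14.8 RPKM in retina, a difference of 0.31.

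The remaining NR2 members were lower in eye. NR2E1 (TLX), a repressor known from neural stem cells and retinal progenitors of the mouse, was at 7.27 RPKM in eye, against 11.8 RPKM in retina, a difference of -0.63 that 9.72% of proteins fell below. The testicular receptors NR2C1 and NR2C2 lay within 2-fold. NR2C1 was at 13.3 RPKM in eye, against 14.4 RPKM in retina. NR2C2 was at 17.5 RPKM in eye, against 21.8 RPKM in retina, with 15.5 to 17.5 RPKM over its 3 eye transcripts and 5.57 to 21.8 over its 4 retina transcripts. The highest eye transcript aligned over 92 residues and the highest retina transcript over 596. With the longest alignments NR2C2 differed by -0.47 in place of -0.30. Summing transcripts gave NR2C1 a difference of 0.78 in place of -0.11.

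NR6A1 (GCNF) is a repressor known from germ cells and early embryos of the mouse. On the log2 scale with a pseudocount of 1, it was the only receptor at least 2-fold higher in retina. By plain ratio of retina over eye, VDR (2.14) and ERR2 (2.03) also exceeded 2. NR6A1 was at 2.84 RPKM in eye, against 8.84 RPKM in retina. The difference was -1.36, below which 1.84% of proteins lay. This call rested on a retina transcript of 5457 bases aligned over 121 residues. With the longest alignment, over 464 residues in eye and 447 in retina, NR6A1 was at 2.84 RPKM in eye, against 5.69 RPKM in retina. NR6A1 then differed by -0.80, within 2-fold on the same scale. It was lower in eye under all 12 alternatives that gave a value and called under 8 of them.

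Those ROR and NR4A receptors that were found in both tissues had small differences. RORA, a receptor that in mouse regulates cone opsins, was at 10.1 RPKM in eye, against 9.61 RPKM in retina, and differed by -0.53 with best-matching transcripts. RORG, known from lymphocytes, was at 2.14 RPKM in eye, from 1109 reads on a transcript aligned over 497 residues, and was not a best hit in retina. NR4A1 and NR4A2, early response genes induced by activity and stress, were at 4.13 and 3.69 RPKM in eye, against 3.43 and 4.27 RPKM in retina. NR4A3 was found in eye as 4 fragments of 0.461 to 0.819 RPKM.

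Related genes were grouped in lists of other receptors, cofactors, ligand handling and targets. Of 14 other nuclear receptors, 8 were compared, 1 was higher and 7 lower in eye, and none was 2-fold apart, with a median of -0.31. At an equal total 2 of the 8 passed 2-fold towards retina, NR1D1 at -1.22 and RORB at -1.02, and with sums 1 did. Of all proteins, 6.7% passed 2-fold towards retina at an equal total and 19.3% with sums. The 4 most abundant were NR1D1, given above, NR1D2 (REV-ERB beta) at 22.9 RPKM in eye, against 28.8 RPKM in retina, NR1I3 (the xenobiotic receptor CAR) at 16.9 RPKM in eye, against 17.3 RPKM in retina, and RORB, a photoreceptor and interneuron regulator in mouse, at 11.3 RPKM in eye, against 19.9 RPKM in retina. RXRG, the retinoid X receptor form known from mouse cones, was at 10.6 RPKM in eye, against 12.3 RPKM in retina. Thyroid hormone receptor beta, THB, which in mouse sets the middle-wavelength opsin of cones, was at 7.67 RPKM in eye, against 9.68 RPKM in retina, far below THA in both tissues.

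Coactivators, which acetylate or methylate chromatin or link receptors to polymerase, were mostly lower in eye. Of 12 compared, 11 were lower and 1 higher, none of them 2-fold apart, with a median of -0.43. At an equal total all 12 were lower and 2 passed 2-fold, NCOA6 at -1.17 and PRGC1 at -1.23, and with sums 4 did. The shares of all proteins past 2-fold towards retina were 6.7% at an equal total and 19.3% with sums. The most abundant were the methyltransferase CARM1 at 22.9 RPKM in eye, against 24.9 RPKM in retina, NCOA6 at 15.2 RPKM in eye, against 29.4 RPKM in retina, NCOA1 at 14.7 RPKM in eye, against 22.9 RPKM in retina, and NCOA2 at 9.37 RPKM in eye, against 13.5 RPKM in retina. PGC-1 alpha, PRGC1, a partner of the estrogen-related receptors, was at 5.29 RPKM in eye, against 11.5 RPKM in retina, a difference of -0.99 that was -1.11 with the longest alignments. PRGC1 and ERR1 thus differed in opposite directions.

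Corepressors and chaperones leaned the same way as the coactivators. Of 10 corepressor members 7 were lower and 3 higher in eye, with a median of -0.27 and none 2-fold apart. With sums 2 of the 10 passed 2-fold towards retina, against 19.3% of all proteins. The highest were the demethylase KDM1A at 28.5 RPKM in eye, against 34.6 RPKM in retina, GPS2 at 24.6 RPKM in eye, against 30.9 RPKM in retina, the deacetylase HDAC3 at 29.5 RPKM in eye, against 24.8 RPKM in retina, and NCOR1 at 17.01 RPKM in eye, against 20.7 RPKM in retina. HDAC3 changed sign at an equal total, to -0.02. Of 6 steroid receptor chaperones 5 stood lower in eye, and the median was -0.39. None was 2-fold apart, but with sums 2 of the 6 passed 2-fold towards retina, against 19.3% of all proteins. HS90A was at 342 RPKM in eye, against 467 RPKM in retina, the retina value from a transcript of 123 bases, and HS90B was at 182 RPKM in eye, against 290 RPKM in retina. The co-chaperone TEBP was at 83.2 RPKM in eye, against 93.9 RPKM in retina. FKBP4 was the exception, at 97.6 RPKM in eye, against 64.9 RPKM in retina, and its difference was -0.06 with the longest alignments.

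Genes that make, carry or break down the ligands stood apart from the receptors. Of 12 compared, 10 were higher and 2 lower in eye, 7 of them past 2-fold, and the median was 1.61. Of the 19 listed, 16 were in the eye table and 3 of these were in that table only, against 8.75% of all eye names. Over all proteins 11.8% passed 2-fold towards eye. Retinoic acid genes made up most of the 7. The retinal dehydrogenase AL1A1, which makes retinoic acid, was at 174 RPKM in eye, against 10.6 RPKM in retina, and AL1A3 was at 8.22 RPKM in eye, against 1.29 RPKM in retina. RABP2, which delivers retinoic acid to its receptors, was at 22.8 RPKM in eye, against 0.727 RPKM in retina, and FABP5, another carrier, at 205 RPKM in eye, against 28.6 RPKM in retina. CP26A, the hydroxylase that degrades retinoic acid, was at 12.9 RPKM in eye, against 2.21 RPKM in retina, and the retinal reductase DHRS3 at 40.8 RPKM in eye, against 16.2 RPKM in retina.

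CP27A, which makes oxysterols and was the last of the 7, was at 20.1 RPKM in eye, against 4.50 RPKM in retina. The other 5 members compared were within 2-fold, though with sums 1 passed it towards retina, against 19.3% of all proteins. RABP1, the other retinoic acid binding protein, was the most abundant member, at 298 RPKM in eye, against 312 RPKM in retina, where the value came from a transcript of 131 bases, and its difference of -0.06 was 0.59 with the longest alignments. RDH10, which supplies retinal for retinoic acid, was at 83.9 RPKM in eye, against 69.8 RPKM in retina, a difference of 0.26 that was -0.01 at an equal total. DHI1, which regenerates cortisol inside cells, was at 23.6 RPKM in eye, against 24.6 RPKM in retina. Aromatase CP19A and the vitamin D enzymes CP27B and CP24A were no transcript's best hit in either table.

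**Figure D5:**
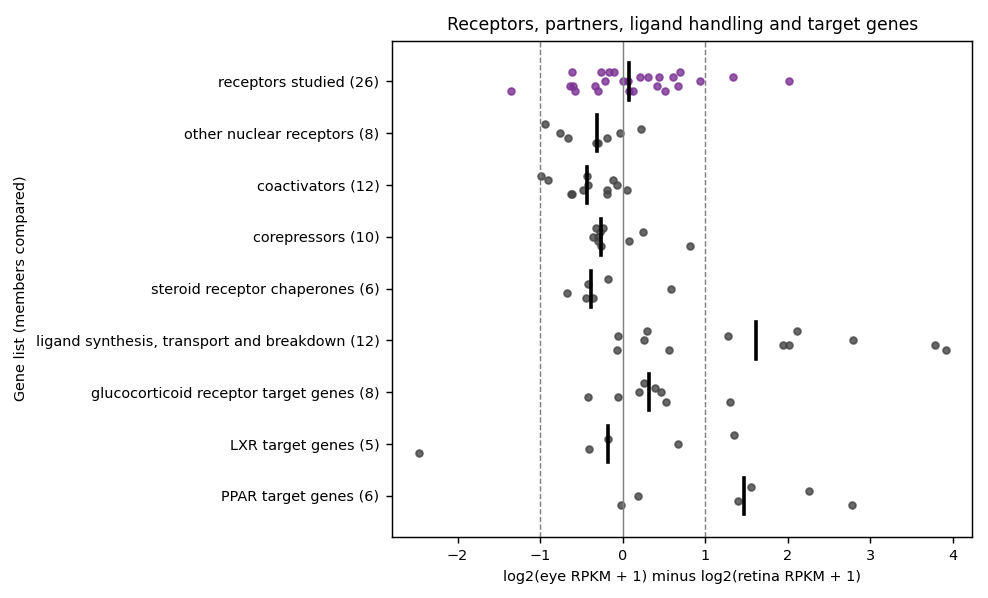
Log2 difference, eye minus retina (horizontal axis), for the 26 receptors (purple) and the members of 8 related lists (grey), with the list median as a black bar, the number compared in brackets and dashed lines at a 2-fold difference. The lists of ligand handling and PPAR targets have medians of 1.61 and 1.48, and those of cofactors and chaperones lie below zero.

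Known target genes of the receptors differed list by list. Of 8 glucocorticoid receptor targets 6 stood higher in eye (median 0.33), but 4 of 8 did at an equal total. T22D3 (GILZ) was the only one of the 8 at least 2-fold higher in eye, where 11.8% of all proteins were so. It was at 114 RPKM in eye, against 45.4 RPKM in retina. The kinase SGK1 was at 151 RPKM in eye, against 126 RPKM in retina, and the co-chaperone FKBP5 had the lower level in eye, 14.7 RPKM against 20.0 RPKM in retina. The phosphatase DUS1 was at 19.3 RPKM in eye, against 13.1 RPKM in retina.

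Of 6 PPAR targets 5 were higher in eye, 4 of these past 2-fold, and the median was 1.48. The share of all proteins past 2-fold towards eye was 11.8%. HMCS2, the ketone body synthase, was at 34.03 RPKM in eye, against 4.11 RPKM in retina, and PLIN2, a lipid droplet coat protein, at 8.17 RPKM in eye, against 0.915 RPKM in retina. ACADM, an enzyme of fatty acid oxidation, was at 14.8 RPKM in eye, against 4.40 RPKM in retina, and the lipase inhibitor ANGL4 at 4.09 RPKM in eye, against 0.931 RPKM in retina. PDK4 and CPT1A were nearly even, at 19.0 and 25.5 RPKM in eye, against 19.3 and 22.2 RPKM in retina. FABP4, a fat cell marker as well as a target, was at 16.8 RPKM and in the eye table only.

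Of 5 LXR targets 2 were higher and 3 lower in eye, with a median of -0.18. The 2 that passed 2-fold by the highest transcript rested on short transcripts. Among all proteins 11.8% passed 2-fold towards eye and 3.6% towards retina. With sums 4 of the 5 passed 2-fold towards retina and 1 towards eye, and the median was -1.56. The shares of all proteins with sums were 19.3% towards retina and 16.8% towards eye. APOE, a lipid carrier, was at 1160 RPKM in eye, from 262 bases, and 453 in retina, and differed by -1.18 with the longest alignments against 1.35 with the highest. The cholesterol exporter ABCA1 was at 1.67 RPKM in eye, against 13.8 RPKM in retina, where the transcript had 256 bases, and differed by 0.30 with the longest alignments against -2.47. The transporter ABCG1 was at 17.4 RPKM in eye, against 23.4 RPKM in retina, MYLIP at 20.5 RPKM in eye, against 23.4 RPKM in retina, and SRBP1 at 13.4 RPKM in eye, against 8.05 RPKM in retina.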

How the data were processed

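RNA of eye (2 libraries) and retina (3 libraries) was compared, grouped by title. Each tissue has 1 deposited table of values, read as RPKM from the values, since the file headers say expression value only. RPKM times length was a whole multiple of 1 constant within 0.01 reads for 100% of transcripts. The authors aligned reads with Bowtie, per the submitters' processing notes. The sources used here do not give the assembler, the counting mode or the strand. Best Swiss-Prot hits were deposited with their E-values, which like a p-value rate chance matches, the percent of similar residues and the bit score, per the file headers.

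The highest transcript per entry name gave the level. Entry names found in both tables were compared where one tissue reached 1 RPKM, with a pseudocount of 1. Python 3.11.15, pandas 2.3.3, numpy 2.4.6 and scipy 1.17.1 were used. On simulated retina reads, 100% of 2-fold and 100% of 4-fold changes among 12913 proteins came within 0.2 in log2. This run had Poisson noise only.

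The members and lists were chosen with earlier results of these data known. Named were all 34 receptors and, per list, up to 4 of the most abundant members and those 2-fold apart, besides THB, RXRG, PRGC1, DHI1, FABP4 and members found in no table or 1 table, chosen after their values were seen. All 34 symbols occur in the RefSeq annotation (mIctTri1.hap1), used for names and neighbours only. No sequences are printed, as none were used here.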

Additional observations from a re-analysis of the deposited data

How the results depend on the processing

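Each difference rests on 1 deposited value per tissue from separate assemblies, and leaving out a library could not be done. No paired analysis was possible because the tables carry no value per library. Over 13 alternatives, 1 of them (the longest alignment) chosen after seeing the data, RARG and ERR1 kept a 2-fold difference in each, and 18 of 26 receptors kept their sign in all that gave a value. For ERR1, with a single transcript per tissue, only changes of pseudocount or scaling moved the value. No called receptor reversed. The number at least 2-fold higher in eye was 2 in all but pseudocount 0.1 (3, with COT2) and sums over transcripts (5, with RARA, NR1H2 and COT2). The number at least 2-fold higher in retina was 0 with the filter at 10 RPKM, with pseudocount 5 and with the longest alignment. It was 2 with pseudocount 0.1 (NR6A1, VDR) and with sums (RXRB, ERR3), and 1 with best-matching transcripts, which is THA and not NR6A1. The filter at 10 RPKM left 15 receptors, of which 9 were higher in eye. With sums the shares of all proteins at least 2-fold higher were 16.8% in eye and 19.3% in retina. Of 327 values of single receptors under alternatives, 224 lay within the counting interval and 103 outside it. Settings that only filtered, by level, transcript length, E-value or mammalian hits, repeated the main value of every receptor they kept. These repeats are among the 224 and are no measure of stability. The counting interval of the ratio of eye to retina excluded 1 for 26 of the 29 receptors in both tables, all but PPARD, ANDR and PRGR.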

Other observations

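Receptors differed in how many assembled transcripts carried their name. In eye 20 of 32 receptors had several transcripts, and in 5 of these the highest was at least 2-fold above the lowest. In retina 14 of 29 had several, and in 8 of these the spread was at least 2-fold. RARB showed the widest spread of the retinoid receptors in both tables, with ratios of highest to lowest of 15.2 in eye and 19.9 in retina. Receptor transcripts had a median length of 2330 bases in eye and 2241 in retina, and 2 in each table were under 200 bases.

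Some receptors outside the 34 were seen in 1 tissue only. HNF4A, a liver and gut receptor, had 4 fragments in eye with a highest level of 1.06 RPKM. STF1 (NR5A1), the steroidogenic regulator, had 1 transcript in retina, at 0.538 RPKM. The retinoic acid enzymes AL1A2, at 1.49 RPKM, and CP26B, at 0.615 RPKM, and the thyroid hormone deiodinase IOD3, at 2.41 RPKM, were in the eye table only. Among all names, 8.75% of those in eye were missing from retina, and 651 of 14600 in retina were missing from eye.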
